A study of Mus musculus with 24 samples.

Results

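RNA-seq libraries of osteoclast cultures were compared between mice lacking STING (KO) and wild-type (WT) mice after 2 days of RANKL. The comparison used 6 of the 24 libraries of the series: KO mice 481, 528 and 532, and WT mice 480, 529 and 531. They were taken by their labelled genotype and day and fitted on their own. In both groups, marrow from females aged 10 to 12 weeks was grown for 72 h in 40 ng/mL mCSF. The cells were then replated at 25000 per well with 10 ng/mL RANKL and 20 ng/mL mCSF. Wells of 1 mouse were pooled before RNA was isolated, so each library is 1 mouse, and a different mouse in each group. No source used here describes the STING allele, the strain background or whether WT mice were littermates. The deposited values are FPKM, fragment counts scaled by transcript length and by library size, and the absolute depth is unknown.

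STING, encoded by Sting1, is an adaptor of the endoplasmic reticulum that responds to the cyclic dinucleotide made by the DNA sensor cGAS. It recruits the kinase TBK1, which activates the transcription factor IRF3 and starts the type I interferon response. RANKL, through its receptor RANK and the transcription factors c-Fos and NFATc1, turns macrophage precursors into multinucleated, bone-resorbing osteoclasts, and interferon beta is known to restrain that process in mice.

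Sting1 (in the table as Tmem173; GRCm38 chr18:35733679-35740554, minus strand), measured 3.70, 3.41 and 3.37 FPKM in KO mice 481, 528 and 532, against 5.28, 6.15 and 7.35 FPKM in WT mice 480, 529 and 531. The KO libraries all lay below the WT libraries, and none was at 0. Without a description of the allele, the level cannot show which part of the gene these reads came from. The means were 3.49 ± 0.179 FPKM in KO and 6.26 ± 1.04 FPKM in WT (SD, n = 3 each), a log2 difference of -0.68 on the log2(FPKM + 1) scale (SE 0.111). The difference did not pass the threshold (limma with Benjamini-Hochberg adjustment, adjusted p = 0.786), but it did in 1 fit over all 24 libraries (limma adjusted p = 0.0474). That fit took libraries of the same mouse on different days as independent, so its p-value does not allow for repeated sampling.

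Across the 9270 genes with a mean of at least 1 FPKM in either group, 1 gene (0.0108%) passed an adjusted p of 0.05, higher in KO, and 0 were lower. Without KO mouse 528, 3 genes passed, and without WT mouse 480 or WT mouse 529, 2 genes passed in each case; the added genes were the microRNA models Mir24-2, Mir1945, Mir5133 and Mirlet7d. The median log2 difference of all genes was -0.01, with quartiles at -0.05 and 0.04, and 26 genes differed by more than 0.5 in either direction. An unadjusted limma p under 0.05 was reached by 92 genes (0.992%), 29 of them higher in KO (0.313%) and 63 lower (0.68%). Without WT mouse 480 that count was 281, and with libraries weighted by their own spread it was 151. If no gene differed, 463.5 genes would be expected under that cut, so the observed 92 were fewer. Shares of lists below are set beside the observed 0.992%, which is lower than the share expected without a difference. The KO and WT libraries did not overlap for 331 genes (3.57%), with 140 higher in KO (1.51%) and 191 lower (2.06%). In a principal component analysis of the 6 libraries, WT mouse 531 lay farthest out on the first component, which held 38.5% of the variance. The spread between mice was smaller in KO than in WT, with a median SD per gene of 0.0899 in KO and 0.128 in WT on the log2 scale. Summed FPKM per library ran from 463082 to 486316 in KO and from 459180 to 511481 in WT.

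The gene that passed was Gm8615, annotated as a transcribed processed pseudogene (GRCm38 chr5:149155108-149156209, minus strand). It measured 1.95, 1.85 and 1.70 FPKM in KO mice 481, 528 and 532, against 0.0419, 0.0403 and 0.0402 FPKM in WT mice 480, 529 and 531. Every KO library held a clear signal and every WT library sat near 0. The log2 difference was 1.44 (SE 0.0799, limma adjusted p = 0.000977), and with a pseudocount of 0.1 in place of 1 it was 3.78. With neighbouring mouse numbers taken as a replicate block, Gm8615 did not pass (limma adjusted p = 0.0661). It met the 1 FPKM filter only through its KO mean, and it was also called without that filter. The annotated transcript of Gm8615 has 771 bases, of which 753 aligned to Gnpda1, a glucosamine-6-phosphate deaminase gene, with 7 mismatches (99.07% identical). No source used here says how the authors counted fragments that match both genes, so the level of Gm8615 is uncertain to that extent. Gnpda1 itself, on chromosome 18 at 2.59 Mb from Sting1, measured 27.4, 25.7 and 30.8 FPKM in KO mice 481, 528 and 532, against 26.6, 30.0 and 25.9 FPKM in WT mice 480, 529 and 531, and the groups overlapped.

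**Figure D1:**
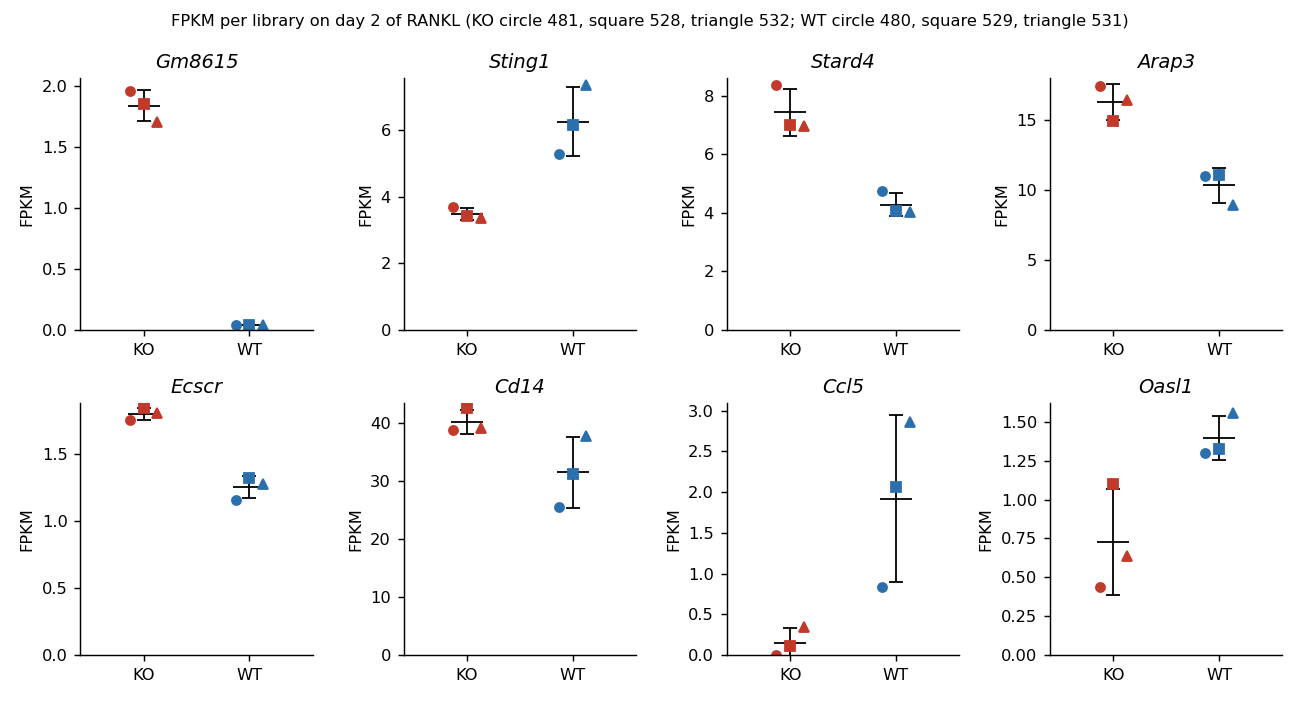
FPKM of 8 genes in the 3 KO (left, red) and 3 WT (right, blue) libraries of day 2; symbols are mice, and horizontal lines with bars are the group mean and SD. Gm8615 lay at 1.70 FPKM or more in KO and at 0.0419 FPKM or less in WT, while Ccl5 and Oasl1 were lower in every KO library without passing the threshold.

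Several of the genes with the smallest p-values lay close to Sting1 on chromosome 18. Stard4, a carrier of cholesterol between membranes (GRCm38 chr18:33199355-33213862), measured 8.37, 7.0 and 6.96 FPKM in KO mice 481, 528 and 532, against 4.74, 4.07 and 4.04 FPKM in WT mice 480, 529 and 531. Its lowest KO library was above its highest WT library, with a log2 difference of 0.68 (SE 0.0971; limma adjusted p = 0.581). As for Sting1, the fit over all 24 libraries gave an adjusted p of 0.0474 by limma, again without allowing for repeated sampling of mice. Arap3, a GTPase-activating protein at 2.24 Mb from Sting1, measured 17.4, 14.9 and 16.4 FPKM in KO mice 481, 528 and 532, against 11, 11.1 and 8.91 FPKM in WT mice 480, 529 and 531. The log2 difference was 0.61 (SE 0.102; limma adjusted p = 0.786). Ecscr, an endothelial cell surface protein gene that starts at -0.0206 Mb from Sting1, measured 1.75, 1.84 and 1.81 FPKM in KO mice 481, 528 and 532, against 1.16, 1.32 and 1.28 FPKM in WT mice 480, 529 and 531. Its libraries did not overlap, with a log2 difference of 0.31 (SE 0.077) that did not pass.

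The same direction held for 2 more neighbours. Cd14, the co-receptor for lipopolysaccharide at 0.991 Mb, measured 38.7, 42.4 and 39.1 FPKM in KO mice 481, 528 and 532, against 25.4, 31.2 and 37.7 FPKM in WT mice 480, 529 and 531 (log2 difference 0.36, SE 0.13). Hbegf, a growth factor of the EGF family at 0.771 Mb, averaged 6.12 ± 0.327 FPKM in KO and 5.24 ± 0.251 FPKM in WT (SD, n = 3 each; log2 difference 0.19). Neither passed the adjusted threshold, and the margin between the lowest KO and the highest WT library of Cd14 was small.

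Of the 73 genes of the table whose start lies within 10 Mb of the Sting1 start, 68 were tested. Among them 6 (8.82%) had an unadjusted limma p under 0.05, against 0.992% of all genes tested, and all 6 were higher in KO: Arap3, Cd14, Cdc23, Ecscr, Hbegf and Stard4. The groups did not overlap for 10 of the 68 (14.7%), against 3.57% of all genes. Of these, Ctnna1 and Rnf14 were higher in KO beside the 5 described above, and Ercc3, Iws1 and Tmco6 were lower; these 5 names and Cdc23 were chosen after their values were seen. On the rest of chromosome 18, 1 of 158 tested genes (0.633%) had an unadjusted limma p under 0.05 and 6 (3.8%) did not overlap. The median log2 difference of the 68 neighbours was 0.01, beside -0.01 for all genes, with 37 positive and 31 negative. Windows of 2, 5 and 20 Mb, chosen after seeing the data, held 4 of 35, 6 of 60 and 6 of 102 genes with an unadjusted limma p under 0.05. Leaving out each mouse in turn gave 4 to 9 such genes within 10 Mb. No source used here describes the strain origin of the sequence around the targeted locus, and its part in these differences was not tested.

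**Figure D2:**
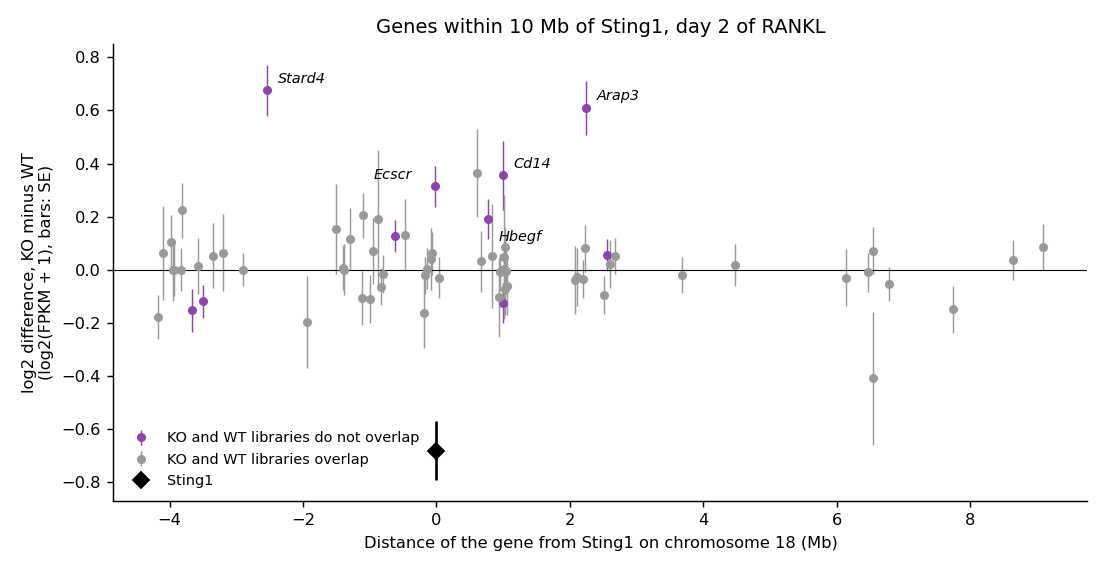
Log2 difference, KO minus WT, on day 2 (vertical axis, log2(FPKM + 1) scale, bars are SE) against the distance of each gene's start from that of Sting1 (horizontal axis, Mb); purple genes had no overlap between the KO and WT libraries. Stard4 and Arap3 stood at 0.68 and 0.61, and the 68 tested neighbours held 37 positive and 31 negative differences.

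Interferon-stimulated genes, the antiviral and signalling genes switched on by type I interferon, were a little lower in KO as a list, and none passed the threshold. Of 90 listed, 82 were in the table and 53 were tested; 10 had a positive and 43 a negative log2 difference, where 46.8% of all genes were positive and 53.2% negative. The median was -0.06, beside -0.01 for all genes, and it ran from -0.13 without WT mouse 480 to -0.03 without KO mouse 481. Without KO mouse 481, 19 of the 53 were positive. Unadjusted limma p-values under 0.05 were found for 4 of the 53 (7.55%), against 0.992% of all genes, all lower in KO: Oasl1, Oas2, Oas3 and Irf9. The first 3 passed the 1 FPKM filter only through their WT means, so being lower in KO was partly set by the filter.

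The KO and WT libraries did not overlap for 3 of the 53 (5.66%), against 3.57% of all genes. These were Oasl1, Oas2 and Oas3, of the 2',5'-oligoadenylate synthetase family, which respond to double-stranded RNA. Oasl1, the family member that in mice holds back translation of Irf7, measured 0.434, 1.10 and 0.640 FPKM in KO mice 481, 528 and 532, against 1.30, 1.33 and 1.56 FPKM in WT mice 480, 529 and 531 (log2 difference -0.49, SE 0.141). Oas2, which makes the activator of RNase L, measured 0.631, 0.912 and 0.702 FPKM in KO mice 481, 528 and 532, against 0.980, 1.56 and 1.41 FPKM in WT mice 480, 529 and 531 (log2 difference -0.40, SE 0.119). Oas3 averaged 0.766 ± 0.171 FPKM in KO and 1.22 ± 0.214 FPKM in WT (SD, n = 3 each; log2 difference -0.33). All 3 were expressed near the filter of 1 FPKM, where the log2(FPKM + 1) scale understates a change. As they were tested only through their WT means, the count of 3 of 53 is partly set by the filter too. Irf9, the DNA-binding subunit of the interferon-activated complex ISGF3, measured 3.41, 4.07 and 3.83 FPKM in KO mice 481, 528 and 532, against 3.97, 4.89 and 5.04 FPKM in WT mice 480, 529 and 531, and its groups overlapped.

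Not every key member separated the genotypes. Isg15, a ubiquitin-like modifier, measured 1.17, 1.34 and 1.21 FPKM in KO mice 481, 528 and 532, against 2.19, 1.15 and 2.31 FPKM in WT mice 480, 529 and 531, so that WT mouse 529 lay at the KO level. Another 29 members were below the filter in both groups, and 25 of them had the lower mean in KO. Ifit1, an antiviral RNA-binding protein, was one of these, with 0.0311, 0.107 and 0.122 FPKM in KO mice 481, 528 and 532, against 0.176, 0.262 and 0.431 FPKM in WT mice 480, 529 and 531. Usp18, which removes Isg15 from proteins, was at 0.0725, 0.142 and 0.143 FPKM in KO mice 481, 528 and 532, against 0.249, 0.215 and 0.502 FPKM in WT mice 480, 529 and 531. Both were untested at these levels. They were among 6 of the 29 (20.7%) with every KO library below every WT library, against 4.27% of the 1451 genes below the filter; none of the 29 had every KO library above, and 23 overlapped. In the summed list, the 82 genes came to between 1429 and 1790.45 FPKM in KO and between 1570.13 and 2123 FPKM in WT, and those ranges overlapped.

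ISGF3 binds a DNA element in the promoters of such genes, so the RefSeq promoters (GRCm38.p6, 250 bases before to 50 bases after the start) were searched on both strands for GAAANNGAAA or its complement TTTCNNTTTC. Of the 53 tested interferon-stimulated genes, 44 matched a promoter, and 22 of those (50%) held the motif. The share was 10.7% of the 28 osteoclast effector genes with a promoter, 3.6% of the 7490 tested genes with one, and 3.99% of 27025 genes in the promoter table. The promoters of Isg15, Oas3 and Oasl1 are shown because these genes are described above and differ in the motif; capitals mark the matches.
Isg15: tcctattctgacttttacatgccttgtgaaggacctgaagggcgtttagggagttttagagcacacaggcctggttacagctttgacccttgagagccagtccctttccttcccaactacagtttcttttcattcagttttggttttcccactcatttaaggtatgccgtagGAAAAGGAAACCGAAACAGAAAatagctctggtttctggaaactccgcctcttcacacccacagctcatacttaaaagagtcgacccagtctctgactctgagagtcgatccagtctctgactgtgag
Oas3: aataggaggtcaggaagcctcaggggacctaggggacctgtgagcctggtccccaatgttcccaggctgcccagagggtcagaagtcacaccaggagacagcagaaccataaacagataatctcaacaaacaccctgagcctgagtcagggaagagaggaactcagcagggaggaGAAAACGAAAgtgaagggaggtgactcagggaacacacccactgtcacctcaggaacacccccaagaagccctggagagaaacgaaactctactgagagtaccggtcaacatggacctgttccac
Oasl1: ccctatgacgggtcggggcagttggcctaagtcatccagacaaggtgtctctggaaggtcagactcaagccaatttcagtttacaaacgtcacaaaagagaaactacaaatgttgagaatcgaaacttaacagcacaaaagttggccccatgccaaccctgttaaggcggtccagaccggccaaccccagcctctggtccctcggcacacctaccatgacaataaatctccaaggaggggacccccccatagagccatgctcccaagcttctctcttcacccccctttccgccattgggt
The Isg15 window (chr4:156200769-156201068, minus strand) held 3 overlapping matches, the first at position -78 from the start. In Oas3 (chr5:120777610-120777909, minus strand) there was 1 match, at position -75. In the Oasl1 window (chr5:114922990-114923289, plus strand) these letters were not found.

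The sensors and adaptors that act with STING were close between the genotypes. Of 30 listed genes for nucleic acid sensing, 23 were tested, 4 positive and 19 negative, with a median of -0.06 that ran from -0.12 without WT mouse 480 to -0.00303 without WT mouse 531. cGAS, the DNA sensor upstream of STING (Cgas), averaged 3.69 ± 0.225 FPKM in KO and 4.26 ± 0.378 FPKM in WT (SD, n = 3 each), and its groups overlapped. Tbk1, the kinase downstream of STING, averaged 29.1 ± 1.06 FPKM in KO and 28.3 ± 1.66 FPKM in WT. Trex1, the exonuclease that clears cytosolic DNA, averaged 39.5 ± 3.43 FPKM in KO and 44.4 ± 4.02 FPKM in WT. An unadjusted limma p under 0.05 was found for 2 of the 23 (8.7%), against 0.992% of all genes. One was Sting1, the gene targeted in KO, so that part of the share came with the genotypes compared. The other was Tlr7, the endosomal receptor for single-stranded RNA, at 4.28, 3.92 and 4.27 FPKM in KO mice 481, 528 and 532, against 4.73, 6.15 and 4.83 FPKM in WT mice 480, 529 and 531. The interferon receptor genes Ifnar1 and Ifnar2 had log2 differences of 0.02 and -0.06.

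Chemokine and cytokine genes were lower in KO by count, and Ccl5 had the largest negative log2 difference of the genes named here. Ccl5, a chemokine for T cells and monocytes, measured 0, 0.113 and 0.342 FPKM in KO mice 481, 528 and 532, against 0.834, 2.06 and 2.86 FPKM in WT mice 480, 529 and 531. The groups did not overlap, and the WT mice varied widely among themselves. Ccl5 passed the 1 FPKM filter only through its WT mean of 1.92 FPKM, so a lower KO level was partly set by the filter. The log2 difference was -1.29 (SE 0.254), which did not pass after adjustment, and over the other settings it ran from -3.10 to -0.96. Of 20 tested members, 3 were positive and 17 negative, with a median of -0.12 that ran from -0.22 without WT mouse 480 to -0.06 without WT mouse 531, where 7 were positive. Cxcl10, an interferon-inducible chemokine, measured 1.18, 3.10 and 1.58 FPKM in KO mice 481, 528 and 532, against 1.44, 3.06 and 3.68 FPKM in WT mice 480, 529 and 531. Ccl3 and the monocyte chemoattractant Ccl2 had log2 differences of -0.29 and -0.39 with overlapping groups, and Ccl9, an abundant chemokine of osteoclasts, had -0.02.

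Osteoclast effector genes, which digest bone matrix and acidify the resorption space, were measured at high levels in both genotypes. Acp5, the tartrate-resistant acid phosphatase used as an osteoclast marker, measured 4226, 3663 and 3627 FPKM in KO mice 481, 528 and 532, against 3979, 3363 and 3238 FPKM in WT mice 480, 529 and 531. Ctsk, the collagen-degrading protease, averaged 3072 ± 369 FPKM in KO and 2941 ± 459 FPKM in WT (SD, n = 3 each). Mmp9, a matrix metalloprotease, averaged 2069 ± 315 FPKM in KO and 1864 ± 438 FPKM in WT. For all 3 the groups overlapped and the mean difference was smaller than the SD of either group. The levels match the label of cultures on the osteoclast path, with macrophage genes such as Csf1r still present at 328 ± 29.9 FPKM in KO and 328 ± 40.2 FPKM in WT.

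Of 44 effector genes listed, 43 were tested; 35 had a positive and 8 a negative log2 difference, with a median of 0.12 beside -0.01 for all genes. None of the 43 reached an unadjusted limma p of 0.05 and none separated the groups, against 0.992% and 3.57% of all genes. The median rested on single mice: it was 0.02 without WT mouse 531, 0.03 without KO mouse 481 and 0.21 without WT mouse 480. Calcr, the calcitonin receptor, showed the spread between mice, at 3.63, 1.37 and 1.90 FPKM in KO mice 481, 528 and 532, against 2.85, 1.23 and 0.928 FPKM in WT mice 480, 529 and 531. Itgb3, the integrin beta chain of the sealing zone, measured 33.7, 19.1 and 16.7 FPKM in KO mice 481, 528 and 532, against 29.5, 16.0 and 13.7 FPKM in WT mice 480, 529 and 531. For both genes, KO mouse 481 and WT mouse 480 were the highest of their groups and close to each other. Trem2, a receptor that pairs with the adaptor DAP12, ran the other way, at 119 ± 17.5 FPKM in KO and 140.1 ± 22.7 FPKM in WT, with overlapping groups. The log2 differences of Car2, carbonic anhydrase II, Ckb, brain creatine kinase, and Clcn7, the lysosomal chloride exchanger, were 0.15, 0.16 and 0.14, with overlap in each.

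**Figure D3:**
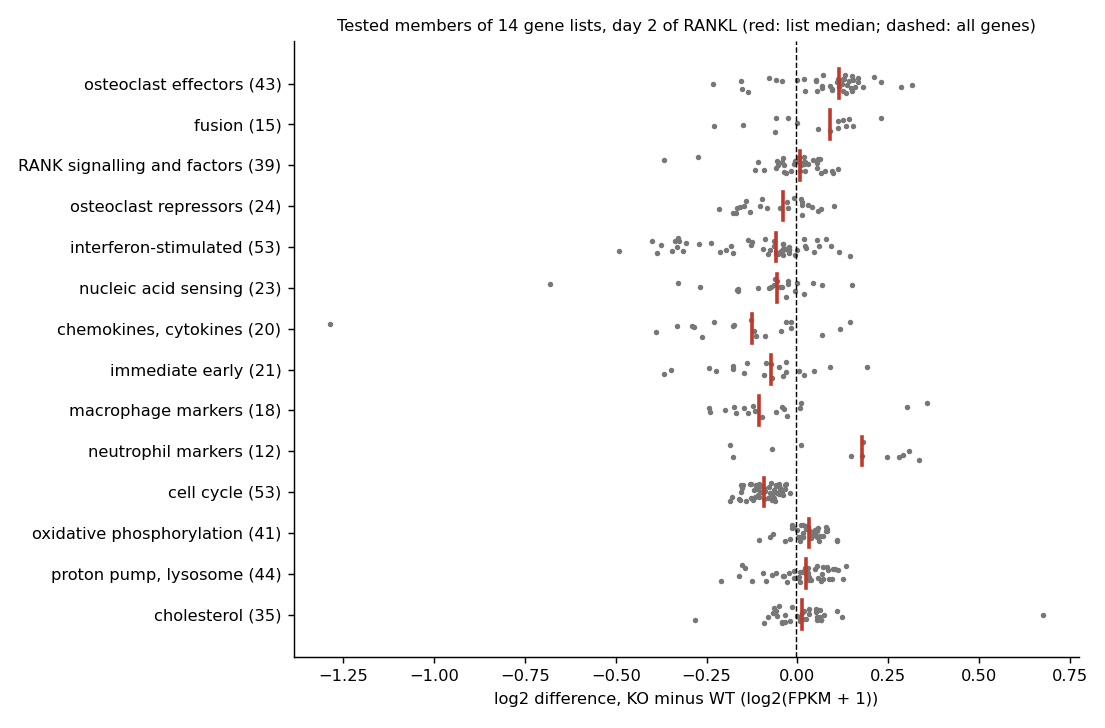
Log2 differences, KO minus WT, of the tested members of 14 gene lists on day 2 (horizontal axis, log2(FPKM + 1) scale; grey points are genes, red bars list medians, the dashed line the median of all genes, numbers in brackets the genes tested). Osteoclast effectors had a median of 0.12 and cell cycle genes -0.09, and single genes far from their list were Ccl5 at -1.29, Sting1 at -0.68 and Stard4 at 0.68.

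No gene of the RANK pathway and its transcription factors passed the threshold. Of 39 tested genes, 23 were positive and 16 negative, with a median of 0.01, and the groups did not overlap for 1 (2.56%), against 3.57% of all genes. An unadjusted limma p under 0.05 was reached by 2 of the 39 (5.13%), Pparg and Fosl1, both lower in KO, against 0.992% of all genes. Fosl1 averaged 2.21 ± 0.327 FPKM in KO and 3.18 ± 0.769 FPKM in WT, with overlapping groups (log2 difference -0.37). The median was -0.03, with 26 negative, without WT mouse 531, and -0.00808, with 21 negative, without KO mouse 481. Nfatc1, the master transcription factor of osteoclast formation, measured 177, 143 and 182 FPKM in KO mice 481, 528 and 532, against 172, 173 and 125 FPKM in WT mice 480, 529 and 531. Tnfrsf11a, which encodes RANK, averaged 36.6 ± 2.12 FPKM in KO and 35.3 ± 3.05 FPKM in WT (SD, n = 3 each), and Fos averaged 168 ± 9.89 FPKM in KO and 168 ± 12.3 FPKM in WT. These means lay within 1 SD of each other. Pparg, a nuclear receptor that promotes c-Fos expression in mouse osteoclast precursors, was the member with the smallest p, at 4.35, 4.53 and 5.02 FPKM in KO mice 481, 528 and 532, against 5.33, 6.15 and 5.98 FPKM in WT mice 480, 529 and 531 (log2 difference -0.27, SE 0.0856, not past the threshold). Genes for cell fusion had 9 of 15 tested members positive and a median of 0.09, with Dcstamp, needed for precursors to fuse, at 230 ± 15.8 FPKM in KO and 209 ± 25.2 FPKM in WT. That median was -0.00129 without KO mouse 481, 0.0027 without WT mouse 531 and 0.16 without WT mouse 480. Adam8, with the smallest p of the fusion list, was lower in KO, with a log2 difference of -0.15. Cd9 had -0.06 and Ocstamp 0.15, and the groups overlapped for each. Repressors of osteoclast formation had 9 of 24 tested members positive and a median of -0.04, or -0.11 without WT mouse 480 and -0.02 without WT mouse 529. Among them the log2 differences of Bcl6 and Irf8, transcription factors that oppose osteoclast genes, were -0.17 and -0.13 with overlapping groups.

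Cell cycle genes pointed one way with small differences. All 53 tested members had a negative log2 difference, from -0.19 to -0.02, with a median of -0.09, and none reached an unadjusted limma p of 0.05. The groups did not overlap for 1 of the 53 (1.89%), against 3.57% of all genes; this was Cdt1, a replication licensing factor named after its values were seen. Averaged over the 53 genes, log2(FPKM + 1) was 4.70, 4.93 and 4.92 in KO mice 481, 528 and 532, against 4.77, 4.99 and 5.07 in WT mice 480, 529 and 531. These means overlapped, with KO mouse 481 and WT mouse 480 the lowest of their groups. Without KO mouse 481 the median was -0.01 and 18 genes were positive, without WT mouse 531 it was -0.03 with 14 positive, and without WT mouse 480 it was -0.17 with none positive. The 53 genes were read in the same 6 libraries, so their count does not stand for 53 separate observations. Ect2, a regulator of cytokinesis and the member with the smallest p, measured 8.08, 10.0 and 9.88 FPKM in KO mice 481, 528 and 532, against 9.61, 11.2 and 11.3 FPKM in WT mice 480, 529 and 531. Top2a, the topoisomerase of dividing cells, averaged 60.2 ± 7.06 FPKM in KO and 62.7 ± 8.43 FPKM in WT.

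Immediate early genes, the fast transcriptional response to signals and to cell handling, were lower in every KO library on average. The mean log2(FPKM + 1) over the 21 tested members was 3.57, 3.54 and 3.61 in KO mice 481, 528 and 532, against 3.65, 3.66 and 3.70 in WT mice 480, 529 and 531. Of the 21, 5 were positive and 16 negative, with a median of -0.07, or -0.12 without WT mouse 480. The groups did not overlap for 3 of the 21 (14.3%), all lower in KO, against 2.06% of all genes: Ier3, Dusp1 and Nr4a1, the last named after its values were seen. Ier3, a stress-inducible survival gene, measured 3.21, 3.94 and 3.91 FPKM in KO mice 481, 528 and 532, against 3.96, 4.87 and 6.21 FPKM in WT mice 480, 529 and 531. Dusp1, a phosphatase of MAP kinases, averaged 11.2 ± 0.45 FPKM in KO and 12.8 ± 1.13 FPKM in WT (SD, n = 3 each; log2 difference -0.18). Egr1 pointed the other way, with a log2 difference of 0.19 and overlapping groups, and none of the 21 passed the threshold.

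**Figure D4:**
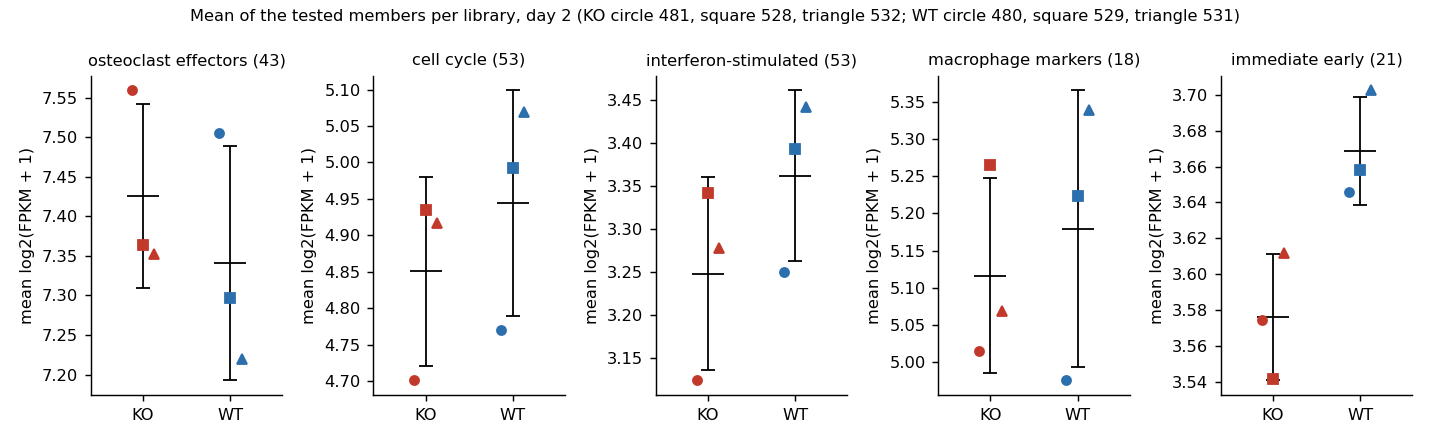
Mean log2(FPKM + 1) over the tested members of 5 lists in each library of day 2 (vertical axes, which do not start at 0), with KO left in red and WT right in blue, symbols for mice, and lines with bars for the group mean and SD. Means of the immediate early list reached at most 3.61 in KO and at least 3.65 in WT, and the KO and WT means of the other 4 lists overlapped.

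No metabolic or lysosomal gene passed the threshold, and the direction of each of the next 3 lists turned when 1 mouse was left out. Of 41 tested genes of oxidative phosphorylation, 32 were positive and 9 negative with a median of 0.03. Cox6a1, with the smallest p of that list, was lower in KO, with a log2 difference of -0.11 and overlapping groups. Ndufa10, a complex I subunit, averaged 190.0 ± 2.51 FPKM in KO and 179 ± 4.42 FPKM in WT without overlap. The groups did not overlap for 2 of the 41 (4.88%), against 3.57% of all genes. The oxidative phosphorylation median was -0.05, with 32 of 41 negative, without WT mouse 529, and -0.00383, with 23 negative, without KO mouse 528. Proton pump and lysosome genes had 29 of 44 positive and a median of 0.02, with Atp6v1a, a subunit of the V-ATPase, at 385 ± 23.2 FPKM in KO and 351 ± 25.2 FPKM in WT and an overlap of groups. Their median was -0.00253, with 24 negative, without WT mouse 529, and 0.0061 without KO mouse 481. Scarb2 and Ctss, with the smallest p of that list, were lower in KO, with log2 differences of -0.16 and -0.21 and overlapping groups. Lamp1, Ctsb and Ctsd had -0.12, -0.06 and -0.09, and Atp6v0d1 had 0.01, also with overlap. Cholesterol genes had 20 of 35 positive and a median of 0.01, which was -0.02 with 25 negative without KO mouse 481, and -0.03 with 22 negative without WT mouse 531. Within that list Stard4 had the highest log2 difference, 0.68. Nr1h3, the sterol-sensing nuclear receptor LXR alpha, measured 8.80, 9.71 and 7.94 FPKM in KO mice 481, 528 and 532, against 9.93, 10.5 and 12.4 FPKM in WT mice 480, 529 and 531 (log2 difference -0.28, not past the threshold).

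In bulk RNA, fewer cells of a type and less RNA per cell cannot be told apart, so markers of the cell types that a marrow culture can hold were read beside these lists. Macrophage markers had 4 of 18 tested members positive and 14 negative, with a median of -0.11 that ran from -0.19 without WT mouse 480 to -0.04 without WT mouse 531. The sum over the 25 macrophage markers in the table was 4595 to 4783 FPKM in KO and 4393 to 5664 FPKM in WT. The groups did not overlap for 3 of the 18 (16.7%), against 3.57% of all genes. Of these, Cd14 (given above) and Ly6c2, a monocyte surface protein named after its values were seen, were higher in KO with log2 differences of 0.36 and 0.30, and the lowest KO and highest WT library of Ly6c2 were almost equal. The lower one, Fcgr3, an IgG receptor, measured 20.3, 21.3 and 20.3 FPKM in KO mice 481, 528 and 532, against 22.4, 25.9 and 25.7 FPKM in WT mice 480, 529 and 531, without overlap (log2 difference -0.24). Neutrophil markers had 9 of 12 positive and a median of 0.18, or 0.39 without WT mouse 480 and 0.07 without WT mouse 529. Their sum over 19 genes was 199 to 226 FPKM in KO and 142 to 238 FPKM in WT. Ngp, a granule protein of developing neutrophils, measured 29.3, 28.3 and 33.7 FPKM in KO mice 481, 528 and 532, against 27.0, 24.5 and 20.6 FPKM in WT mice 480, 529 and 531, and the groups did not overlap. The part of these markers in the other lists was not tested.

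Most other lineages left little signal in the markers that the table holds. It held 10 of 15 listed B cell markers, 4 of 17 of T and NK cells and 6 of 21 stromal ones. For erythroid cells and platelets it held 9 of 16, for mast cells, basophils and eosinophils 8 of 15, and for dendritic cells 11 of 13. Markers absent from the table cannot be read as low. None of the 10 B cell markers in the table reached 1 FPKM, Ms4a1, Pax5 and Blk were at 0 in all 6 libraries, and the 10 summed to at most 0.468 FPKM in KO and 0.513 FPKM in WT. Of 8 markers of mast cells, basophils and eosinophils, Cpa3 and Prss34 were at 0 in all 6 libraries, and Prg2, an eosinophil granule protein, was the 1 tested, at 1.73, 0.995 and 0.822 FPKM in KO mice 481, 528 and 532, against 1.66, 0.237 and 0.236 FPKM in WT mice 480, 529 and 531. Here too KO mouse 481 and WT mouse 480 were the highest of their groups. Sums were 5.91 to 7.69 FPKM in KO and 4.97 to 7.38 FPKM in WT over 4 T and NK cell markers, and 4.36 to 4.43 FPKM in KO and 2.79 to 4.23 FPKM in WT over 6 stromal markers. Erythroid and platelet markers were mostly Pf4, at 25.3 ± 3.8 FPKM in KO and 28.2 ± 5.06 FPKM in WT. The 11 dendritic markers summed to 54.3 to 63.2 FPKM in KO and 53.1 to 76.6 FPKM in WT. Most of that was Bst2, at 52.6 ± 5.22 FPKM in KO and 56.5 ± 13.9 FPKM in WT. The others of the 3 tested were Itgax, at 2.11 FPKM in both groups, and Ccl22, at 1.23 FPKM in KO and 1.03 FPKM in WT. Flt3 and Siglech stayed under 0.06 FPKM in every library.

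The remaining leading genes belonged to no list of one direction. Acad11, a mitochondrial acyl-CoA dehydrogenase, measured 17.4, 18.6 and 17.5 FPKM in KO mice 481, 528 and 532, against 14.5, 14.7 and 14.4 FPKM in WT mice 480, 529 and 531 (log2 difference 0.28, SE 0.0648). Its groups were narrow and clearly apart, and it still did not pass the adjusted threshold. Msln, which encodes mesothelin, averaged 2.09 ± 0.167 FPKM in KO and 1.48 ± 0.185 FPKM in WT (SD, n = 3 each), and Mest, an imprinted gene, averaged 1.44 ± 0.11 FPKM in KO and 0.992 ± 0.175 FPKM in WT. Hist1h4h, a replication-dependent histone H4 gene, averaged 1.37 ± 0.274 FPKM in KO and 0.693 ± 0.275 FPKM in WT, and its many near-identical copies make the split of reads uncertain. Mest and Hist1h4h passed the filter only through their KO means. On the lower side, Cd72, an inhibitory receptor best known from B cells, measured 25.3, 28.8 and 29.2 FPKM in KO mice 481, 528 and 532, against 33.6, 35.1 and 41.2 FPKM in WT mice 480, 529 and 531 (log2 difference -0.39, SE 0.0959). Tfpi, an inhibitor of the tissue factor pathway of coagulation, averaged 10.1 ± 1.78 FPKM in KO and 13.9 ± 0.93 FPKM in WT (log2 difference -0.43). Gna15, a G protein alpha subunit, and Bhlhe41, a basic helix-loop-helix repressor, had log2 differences of -0.36 and -0.37. The heat shock gene Hspa1b averaged 1.06 ± 0.143 FPKM in KO and 1.69 ± 0.365 FPKM in WT, and its near-identical copy Hspa1a makes its level uncertain. Each of these genes was taken because its KO and WT libraries did not overlap, so that separation is how they were chosen.

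The same mice were sampled before RANKL and on days 3 and 4, which places the day 2 differences beside those of other days. Day 0 cells were in 40 ng/mL mCSF without RANKL, and no plating density is listed for them. Cells of days 2 to 4 were in 20 ng/mL mCSF at 25000 per well. A change between day 0 and day 2 therefore cannot be assigned to RANKL alone. For Gm8615, KO libraries averaged 6.0 ± 1.11 FPKM on day 0, 1.84 ± 0.128 on day 2, 2.22 ± 0.113 on day 3 and 2.95 ± 0.206 on day 4 (SD, n = 3 each), while every WT library of the 4 days was between 0 and 0.0495 FPKM. Tested within mice, its genotype difference was smaller on day 2 than on day 0 by 1.35 on the log2 scale (-1.35, SE 0.131; limma adjusted p = 0.0305), the 1 of 9270 genes (0.0108%) to pass, while 417 (4.5%) had an unadjusted p under 0.05. That call was lost with a pseudocount of 0.1, without the filter, and without KO mouse 481, KO mouse 532, WT mouse 529 or WT mouse 531. No gene passed for day 3 against day 2 or day 4 against day 2 (limma; 146 and 143 genes at an unadjusted p under 0.05, or 1.57% and 1.54%).

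For Sting1 the difference was largest in value on day 0. The log2 difference was -0.68 on day 2 and -2.15 on day 0 (limma adjusted p = 0.00341 in the 6 libraries of day 0), when it averaged 4.84 ± 0.26 FPKM in KO and 25.2 ± 3.70 FPKM in WT (SD, n = 3 each). The difference on day 2 minus that on day 0 was 1.47 (SE 0.202) and did not pass (limma adjusted p = 0.232). Stard4 had log2 differences of 0.20 on day 0, 0.68 on day 2, 0.67 on day 3 (limma adjusted p = 0.0214) and 0.68 on day 4, and Arap3 had 0.35, 0.61, 0.45 and 0.60 on those days. The count of genes within 10 Mb of Sting1 whose groups did not overlap was 6, 10, 17 and 6 of 68 on days 0, 2, 3 and 4, beside 5.56%, 3.57%, 7.36% and 3.68% of all genes tested on day 2; 1, 6 and 3 of those on days 0, 3 and 4 were among the 10 of day 2 with the same direction.

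Interferon-stimulated genes were farthest apart on day 0 by their median. The median over the 53 genes was -0.46 on day 0, -0.06 on day 2, -0.12 on day 3 and -0.20 on day 4, beside -0.01, -0.01, 0.00 and 0.02 for all genes. Isg15 averaged 1.24 ± 0.0921 FPKM in KO and 1.88 ± 0.633 FPKM in WT on day 2, and 14.4 ± 6.04 FPKM in KO and 55.7 ± 15.6 FPKM in WT on day 0 (SD, n = 3 each). Its genotype difference on day 2 minus that on day 0 was 1.57 (SE 0.23) and did not pass (limma adjusted p = 0.261). Ccl5 stayed lower in every KO library on all 4 days, with log2 differences of -1.71, -1.29, -0.69 and -0.55 on days 0, 2, 3 and 4. Cell cycle genes had medians of 0.26, -0.09, -0.10 and 0.04 on those days, and osteoclast effectors -0.11, 0.12, 0.07 and 0.06. The difference between days was tested gene by gene only, and no member of these lists passed.

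**Figure D5:**
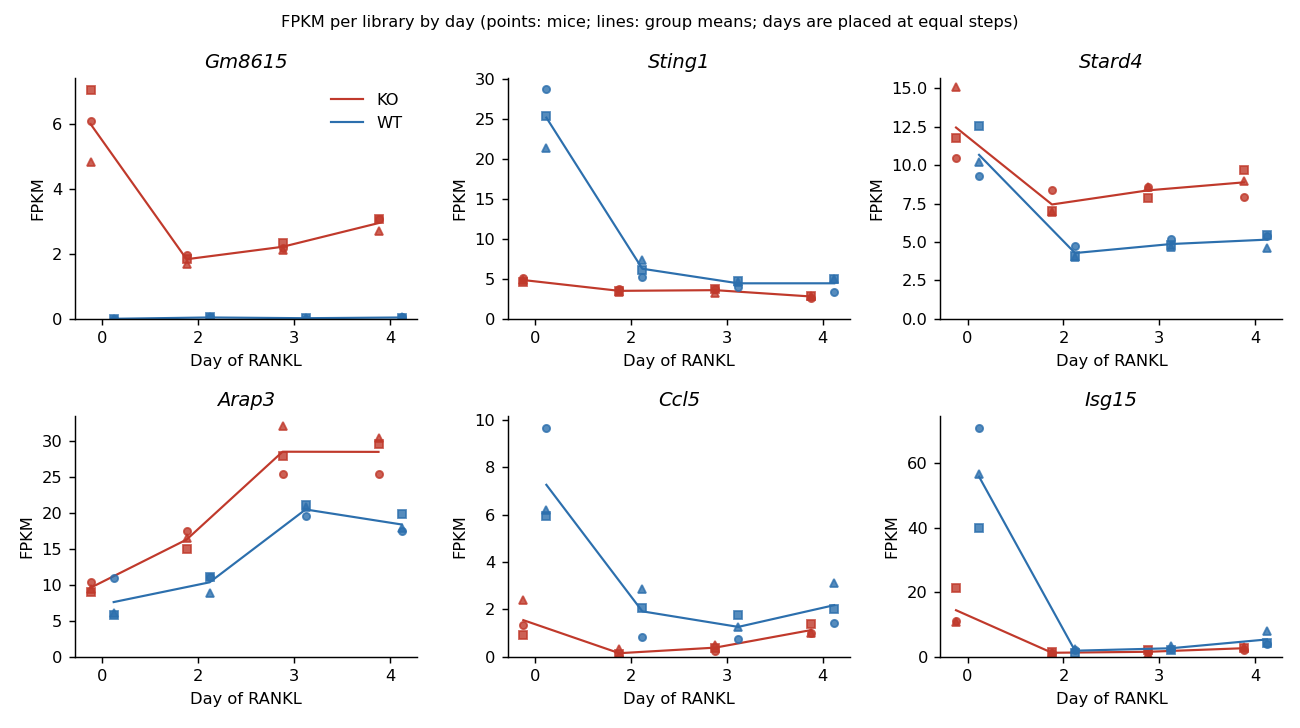
FPKM of 6 genes by day of RANKL (days at equal steps; points are mice with KO in red left of WT in blue, lines join group means). Gm8615 was at 1.70 FPKM or more in every KO library and under 0.05 FPKM in every WT library, Sting1 and Isg15 in WT were highest on day 0, and Stard4 and Arap3 were higher in every KO library on days 2 to 4.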

How the data were processed

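Per the submitters' processing notes, the authors used HISAT2 2.0.5, Cufflinks 2.2.1 and Cuffdiff with mm10. They deposited FPKM per gene and library, 10721 genes in 1 table, and no source used here says how these genes were selected or how multi-mapping fragments were counted. FPKM are not counts, so no count model was used. Day 2 libraries of 3 KO and 3 WT mice were put on the log2(FPKM + 1) scale and compared by limma (version 3.58.1, under R 4.3.3; mean-variance trend, 4 residual degrees of freedom, two-sided, Benjamini-Hochberg over the 9270 genes that averaged 1 FPKM or more in a group, threshold 0.05). Differences are KO minus WT. Day dependence was tested with limma on each mouse's own difference between 2 days. The fits were tested on simulated data. Depth is unknown: no counting interval is given, and steps between low values put the libraries within ratios of 0.952 to 1 of each other.

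Named genes are Sting1; up to 12 rises and 12 falls past the threshold, filled by smallest p with genes whose libraries did not overlap and whose higher mean was at least 1 FPKM; key list members and those with the smallest p; and neighbours of Sting1 with an unadjusted p under 0.05 and no overlap. The comparison, 24 gene lists and tests were chosen with earlier results of these data known, so lists carry no test. Gene symbols were looked up in RefSeq: 9597 were current, 1051 matched a synonym and 73 matched none. Positions are from GENCODE vM21 (GRCm38) or RefSeq, and promoters from RefSeq. Alternatives were another pseudocount (0.1), filter (none, 5 FPKM), median scaling, each mouse left out, neighbouring mouse numbers as a block, 1 fit on 24 libraries, and library weights.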

Additional observations from a re-analysis of the deposited data

Results flagged for a closer look

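The genotype difference of Gm8615 was the 1 that differed between days in a direct test within mice. The difference on day 2 minus that on day 0 was -1.35 on the log2(FPKM + 1) scale (SE 0.131; limma adjusted p = 0.0305), with KO mice averaging 1.84 ± 0.128 FPKM on day 2 and 6.0 ± 1.11 FPKM on day 0 (SD, n = 3 each). WT mice averaged 0.0408 ± 0.000936 FPKM on day 2 and were listed at 0 in all 3 libraries of day 0. All 3 KO mice had the lower level on day 2.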

How the results depend on the processing

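Against the 1 gene called in KO against WT on day 2, 0 were called with a filter at 5 FPKM, which removes Gm8615, and 3 in 1 fit on all 24 libraries (Gm8615, Stard4 and Sting1). The fit on all 24 libraries had no term for mouse. Leaving out each mouse gave 1 to 3 calls. Mouse numbers are not shared between the genotypes. With neighbouring numbers as a replicate block, 0 genes were called (98 at an unadjusted limma p under 0.05) and Gm8615 had a limma adjusted p of 0.0661. The deviations of the numbered pairs correlated at 0.493 (480 and 481), -0.0848 (528 and 529) and -0.21 (531 and 532). With 3 libraries a group these correlations are tied to each other and cannot decide whether the numbers mark a shared batch. No source used here says so, and the main fit used no block. For the change between days 0 and 2, 0 genes were called with a pseudocount of 0.1, 0 without a filter and 0 with a filter at 5 FPKM, and 0 to 4 with a mouse left out. For days 3 and 4 against day 2, 0 to 1 were called with a mouse left out. The cause was not tested. Medians of lists with a mouse left out ran from -0.00129 to 0.16 for fusion, -0.112 to -0.0155 for osteoclast repressors, -0.124 to -0.0600 for immediate early genes, 0.0679 to 0.391 for neutrophil markers and 0.00174 to 0.199 for dendritic markers. Over all lists and settings, 193 of 199 medians moved by less than the spread between replicates. That count does not show that directions were stable. Without WT mouse 529 the oxidative phosphorylation median went from 0.03 to -0.05. Without WT mouse 531 that of osteoclast effectors went from 0.12 to 0.02. No named gene changed direction while past the threshold. With 3 mice a group and unknown depth, genes near 1 FPKM are the least certain.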

Other observations

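The 4 remaining gene lists held no gene past the threshold on day 2. Stress-response genes had 8 of 30 tested members with a positive log2 difference and 22 with a negative one, with a median of -0.05 beside -0.01 for all genes, or -0.03 without WT mouse 531; Atf4, the transcription factor of the integrated stress response, averaged 190.1 ± 8.99 FPKM in KO and 209 ± 17.9 FPKM in WT (SD, n = 3 each), and its groups overlapped. Glycolysis genes had 5 of 23 positive and a median of -0.03, which ran from -0.06 without WT mouse 480 to -0.00334 without WT mouse 531, where 10 were positive. The glucose transporter gene Slc2a3 measured 0.877, 0.642 and 0.684 FPKM in KO mice 481, 528 and 532, against 0.913, 1.03 and 1.11 FPKM in WT mice 480, 529 and 531, so that every KO library lay below every WT library at a low level. Slc2a3 passed the filter only through its WT mean of 1.02 FPKM. MHC class II genes had 3 of 9 positive and a median of -0.04, or 0.03 with 5 positive without KO mouse 532, with H2-Ab1 at 4.26 ± 0.562 FPKM in KO and 4.79 ± 0.386 FPKM in WT. Interferon signalling genes had 8 of 19 positive and a median of -0.03, which was 0.03 without WT mouse 529.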
